A study of Drosophila melanogaster with 3 samples.

Results

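The 10 genes described here carry the Wingless signal of Drosophila melanogaster from its ligand to the nucleus: wg, fz, fz2, arr, sgg, Axn, Apc, arm, pan and nkd. They were listed by name, as genes of a known pathway, with earlier results of these data in view but by a rule that uses no measured value, and are 10 of 13968 protein-coding genes on the chromosome arms in the Ensembl annotation of the dm6 genome build. The measurement was chromatin immunoprecipitation with sequencing (ChIP-seq), which locates the DNA that a protein occupies, for the product of CG16779. The animals were whole prepupae, males and females pooled, of unknown age per the labels. They belonged to a MiMIC insertion line in which an added exon within an intron of CG16779 encodes eGFP, so that an antibody against GFP pulls down the fusion protein. There was 1 group with 3 biological replicates and no second genotype or treatment, and control libraries were not analysed here. All animals carried the tagged gene, and because whole bodies were used, a region cannot be assigned to a tissue or cell type.

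Wingless is the fly Wnt-1 protein. Without it, a cytoplasmic complex built on Axin and Apc, with the kinase encoded by sgg, marks Armadillo (beta-catenin) for destruction. When Wingless binds a Frizzled receptor and the coreceptor Arrow, that complex is inhibited, and Armadillo accumulates, enters the nucleus and joins Pangolin, the fly TCF, at target genes. The pathway patterns the wing, leg and eye imaginal discs, epithelia that are being reshaped into adult structures at the prepupal stage.

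The data are lists of regions, each with a summit, the base of highest signal, and a score set by the authors. The strongest set here is the IDR set, so called for the irreproducible discovery rate, a measure of how well ranked replicates agree, which holds 4805 regions on the arms. In scores these are the 4805 highest of the pooled list of all 3 replicates, and the replicate lists and the pooled list hold 30000 regions each, weak ones included. Scores are on a separate scale in each list, so strength is given below as rank by score within a list, 1 being the strongest. A summit counts for a gene when it lies in the gene or within 2 kb of it. Summits are numbered 5' to 3' along each gene.

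An IDR summit lay in or within 2 kb of 8 of the 10 genes, against a background of 25.8% of all protein-coding genes. The 8 genes were wg, fz, fz2, arr, sgg, Axn, Apc and nkd, with 29 IDR summits together, and arm and pan had none. Long genes hold more summits, so genes of the same length class are the closer comparison. That match is loose. Genes over 20 kb have a median length of 37.2 kb, and fz and fz2 have 94.3 and 94.4 kb. Of the 4 pathway genes of 5 to 20 kb, 3 had an IDR summit (wg, Axn and Apc, 1 each), against 43.5% of all genes in that length class. Of the 6 genes over 20 kb, 5 had an IDR summit, against 59.7% of that class. The same 5 genes, fz, fz2, arr, sgg and nkd, each had 4 or more, against 22.0% of genes over 20 kb. The cut of 4 equals the lowest count among these 5 genes, that of fz, so all 5 pass it by its choice. The 5 genes held 26 of the 29 summits. Per 10 kb of gene and its 2-kb flanks, genes over 20 kb had 0.377 IDR summits. The values were 0.407 at fz, 0.610 at fz2, 1.79 at arr, 1.01 at sgg, 1.09 at nkd and 0 at pan. Genes of 5 to 20 kb had 0.583, against 0.763 at wg, 0.607 at Axn, 0.608 at Apc and 0 at arm. The fz, Axn and Apc values were thus near those of their classes. With so few genes, these shares and densities describe the set and were not tested.

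**Figure D1:**
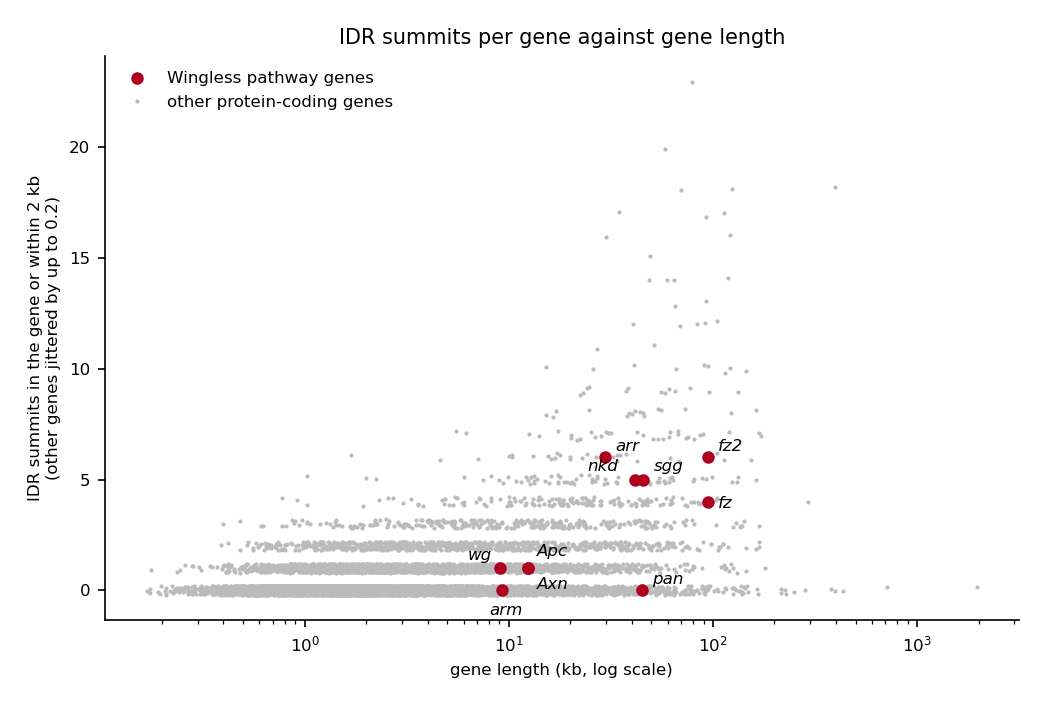
IDR summits in or within 2 kb of each protein-coding gene (vertical axis, count) against gene length (horizontal axis, kb, log scale), with the 10 Wingless pathway genes in red and other genes in grey. The genes fz, fz2, arr, sgg and nkd lie at 4 to 6 summits, where the median gene over 20 kb has 1.00 and the highest 23, and arm and pan lie at 0.

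The strongest region at each of sgg, fz, nkd and fz2 and the only IDR region at wg are shown as sequence, because they are the leading regions of a kinase, both receptors and the feedback inhibitor and the single region of the ligand gene. Each run is 201 bases of the plus strand of dm6, 100 bases to either side of the IDR summit, read from NCBI's copy of the genome. None overlaps an annotated exon. Capitals mark matches, on either strand, to GAGAG, the core of the sites bound by the GAGA factor, and to CTTTGAT, a common form of the TCF site, which reads ATCAAAG on the other strand.
sgg region 1 (chrX:2646371-2646571): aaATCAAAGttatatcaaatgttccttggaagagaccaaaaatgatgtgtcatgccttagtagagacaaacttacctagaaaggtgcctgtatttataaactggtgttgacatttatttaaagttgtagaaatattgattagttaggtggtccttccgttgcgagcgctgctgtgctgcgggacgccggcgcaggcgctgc
fz region 1 (chr3L:14272481-14272681): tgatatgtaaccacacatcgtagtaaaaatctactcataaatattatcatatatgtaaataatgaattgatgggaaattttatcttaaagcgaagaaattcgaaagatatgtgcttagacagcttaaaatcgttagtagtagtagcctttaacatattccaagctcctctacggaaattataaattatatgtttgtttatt
nkd region 3 (chr3L:19042577-19042777): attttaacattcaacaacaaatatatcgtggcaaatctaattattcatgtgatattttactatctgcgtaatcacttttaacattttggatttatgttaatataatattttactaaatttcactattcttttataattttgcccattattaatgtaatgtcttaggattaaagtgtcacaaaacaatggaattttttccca
fz2 region 2 (chr3L:19194151-19194351): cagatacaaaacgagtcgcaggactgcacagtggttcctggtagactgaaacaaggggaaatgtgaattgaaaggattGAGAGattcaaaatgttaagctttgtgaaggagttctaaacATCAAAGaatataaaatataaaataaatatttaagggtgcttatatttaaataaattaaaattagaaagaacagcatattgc
wg region 1 (chr2L:7313534-7313734): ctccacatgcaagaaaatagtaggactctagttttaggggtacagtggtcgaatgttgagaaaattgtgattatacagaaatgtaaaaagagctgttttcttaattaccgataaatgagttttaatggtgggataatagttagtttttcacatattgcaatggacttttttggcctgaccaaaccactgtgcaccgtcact

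In these 5 windows, sgg region 1 held a CTTTGAT match beginning at its base 3, and fz2 region 2 held both a GAGAG and a CTTTGAT match. The fz, nkd and wg windows held neither. The nkd and fz windows were the most AT-rich of all 29, with 23.4% and 27.4% G+C, against medians of 35.8% over the 29 windows at the pathway genes and 37.8% over all IDR windows. Over the 29 windows, GAGAG was present in 14, or 48.3%, against 33.5% of all IDR windows. CTTTGAT was present in 2 (6.90%), those of sgg and fz2 shown above, against 3.35%. The related form CTTTGAA was also present in 2 (6.90%), against 4.60%, and these are neighbouring windows in arr, of regions whose summits are 209 bp apart. The longer repeat GAGAGAGA and the word GCCGCC were in 0 of the 29 windows, against 5.31% and 7.66% of all IDR windows. A match is a run of letters and not a bound site.

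The ligand gene wg (FBgn0284084, chr2L:7307159-7316265, plus strand) encodes the secreted Wingless protein. It had 1 IDR summit, at chr2L:7313634 in a 1.18-kb intron, 6475 bp downstream of its only annotated start. This summit ranked 2718 in the IDR set with a score of 257, and 5400, 3484 and 1929 in replicates 1, 2 and 3. The replicate summits fell within 8 bp of it, although their ranks ranged widely. Near the wg start no IDR or pooled summit was found within 500 bp, and only weak regions of replicates 1 and 3 were, at ranks 7083 and 14167.

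The receptor gene fz (FBgn0001085, chr3L:14274343-14368639, plus strand, 94.3 kb) encodes Frizzled, a Wingless receptor that also acts in planar cell polarity. Its strongest summit, at chr3L:14272581, lay 1762 bp upstream of the start. It had a score of 1104 and rank 153 in the IDR set, and ranks 162, 206 and 148 in replicates 1 to 3. All replicates thus placed it among their 206 strongest regions, with summits within 15 bp. The other 3 IDR summits of fz were intronic and far from the start. Region 2 lay 29711 bp from the start in a 29.2-kb intron with IDR rank 1627, and ranked 2050, 1692 and 1455 in replicates 1 to 3. Regions 3 and 4 shared a 49.4-kb intron, 64749 and 90574 bp from the start, with IDR ranks 1149 and 763. In replicates 1 to 3, region 3 ranked 2074, 1373 and 914, and region 4 ranked 1445, 896 and 671. Other genes had nearer starts, lncRNA:CR45025 at 22197 bp from region 2, CG13482 at 9746 bp from region 3 and CG13481 at 4790 bp from region 4. The fz start itself had a summit 147 bp upstream in the pooled list at rank 5948, outside the IDR set. That summit ranked 3156 in replicate 1 and 3513 in replicate 2 and was missing from replicate 3.

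The second receptor gene, fz2 (FBgn0016797, chr3L:19140975-19235373, minus strand, 94.4 kb), encodes Frizzled 2, which binds Wingless with high affinity. It has 8 annotated transcripts whose starts form 3 clusters (starts chained where 100 bp or less apart). All 6 of its IDR summits were intronic, and none was within 500 bp of a start. The strongest, region 2 at chr3L:19194251, lay 23603 bp upstream of the second start cluster. It had IDR rank 576 and ranks 967, 412 and 745 in replicates 1 to 3. The start of lncRNA:CR45941 was nearer to it, at 9525 bp. Region 6 at chr3L:19160108, 10540 bp downstream of the second fz2 start cluster, had IDR rank 902 and replicate ranks 1397, 1170 and 842. The remaining 4 regions were weaker. Region 1, 792 bp downstream of the first start cluster, had IDR rank 2358 and replicate ranks 2128, 1818 and 4365. Regions 3, 4 and 5 lay 2661 bp or less from the second start cluster at IDR ranks 3090, 3238 and 3484, and their replicate ranks ran between 1751 and 8160. The second start cluster had a pooled summit 47 bp away at rank 6901, and cluster 3 had none in any list.

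The coreceptor gene arr (FBgn0000119, chr2R:13453640-13483229, minus strand, 29.6 kb) encodes Arrow, the fly LRP5 and LRP6 homologue. It had the highest density of the 10 genes, with 6 IDR summits or 1.79 per 10 kb, against 0.377 per 10 kb over all genes above 20 kb. All 6 lay in a single 22.2-kb intron, between 4647 and 16156 bp from the only arr start. The start nearest to each was that of CG43192, a gene inside the intron, 385 to 10269 bp away. Region 4 was the strongest, with IDR rank 1099 and ranks 1204, 1923 and 825 in replicates 1 to 3. Region 3 lies 209 bp from it and is separate only in the pooled list and replicate 1, since replicates 2 and 3 had 1 region for both. Region 6 had IDR rank 1854 and replicate ranks 1875, 3136 and 1596, and region 1 had IDR rank 2005 and replicate ranks 1871, 2091 and 3247. Region 2 was the one 385 bp from the start of CG43192, and ranked 3239 and 3376 in replicates 1 and 3 but 12214 in replicate 2. Region 5 had IDR rank 3782 and replicate ranks 3211, 4574 and 6964. Within 500 bp of the arr start, the only region in any list was at rank 5210 in replicate 2.

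The kinase gene sgg (FBgn0003371, chrX:2633952-2679553, plus strand, 45.6 kb) encodes Shaggy, the fly glycogen synthase kinase 3. It has 19 transcripts in 10 start clusters, and IDR summits lay at 2 of them, the eighth and the ninth, 12.7 and 24.8 kb from the first. Region 1 at chrX:2646471 lay 166 bp upstream of the eighth start cluster, that of transcript sgg-RQ, and was the strongest of all 29. It had a score of 1351 and IDR rank 90, and ranked 179, 63 and 97 in replicates 1 to 3. Regions 2, 3 and 4 followed within 2 kb downstream, at spacings of 202, 898 and 875 bp, so that 4 of the 5 IDR summits of sgg formed a run around this start. Region 2, in the 5' untranslated region 36 bp past the start, had IDR rank 2176 and replicate ranks 2160, 2613 and 2834. Region 3 had IDR rank 639 and replicate ranks 575, 577 and 826, and region 4 had IDR rank 4273 and replicate ranks 3435, 3259 and 5302. Regions 1 to 3 were thus among the 2834 strongest regions of every replicate. Region 5 lay 73 bp upstream of the ninth start cluster, that of sgg-RD and sgg-RP, at IDR rank 3975 and replicate ranks 2255, 5643 and 12002. In replicate 3 a stronger neighbour at rank 3289 also overlapped it.

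The first sgg start cluster, which serves 6 transcripts, had no pooled summit within 500 bp. Its best ranks were 6370 in replicate 1 and 4496 in replicate 2, at summits 232 and 339 bp away. These summits lay nearer to the second cluster, that of sgg-RH, at 31 and 76 bp. The second cluster also had a pooled summit within 500 bp, at rank 8731. Within 500 bp of the fifth and sixth clusters, the best ranks were 5474 in the pooled list, outside the IDR set, and 2183, 5433 and 5196 in replicates 1 to 3, at summits that differ between lists. The clusters numbered 4, 7 and 10 had no summit in any list. The regions at sgg were therefore unequal between its alternative starts, and the ranks at the eighth stood apart from the rest in each list.

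**Figure D2:**
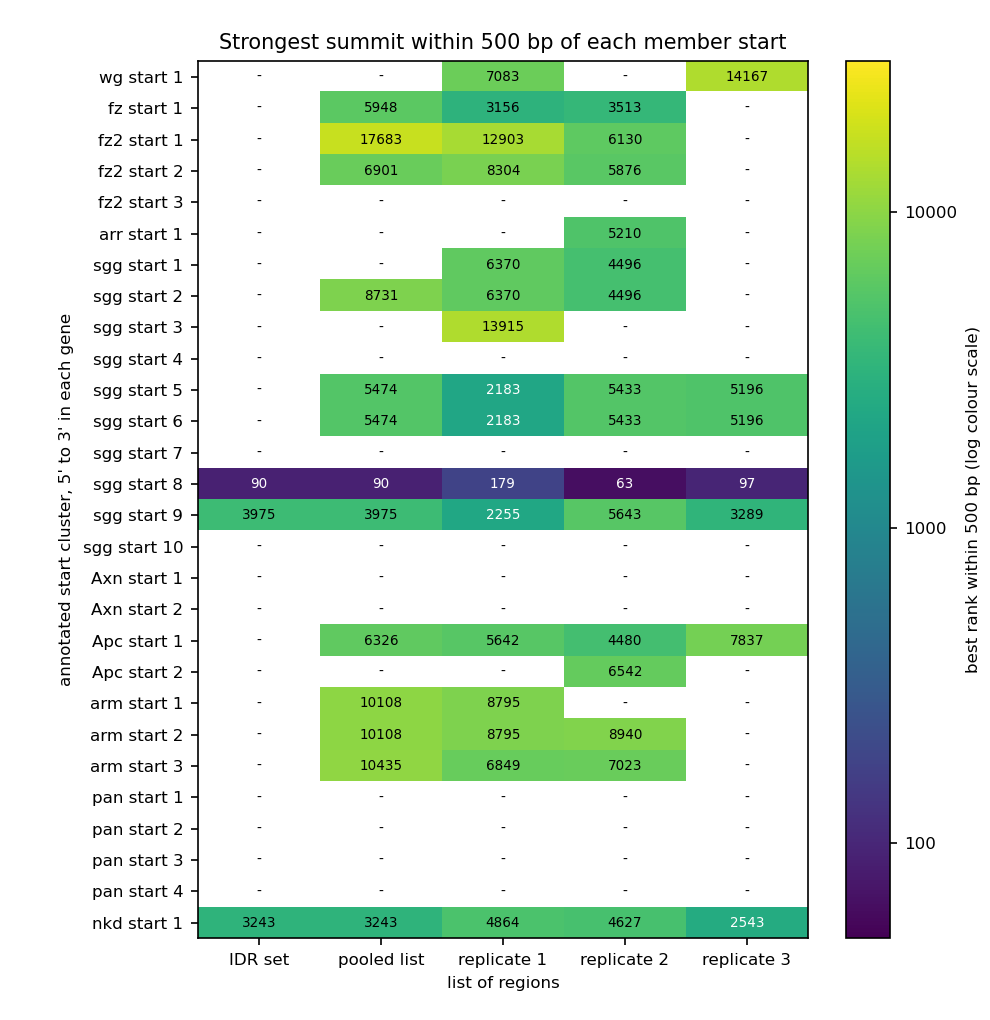
Best rank of a summit within 500 bp of each of the 28 annotated start clusters (rows, numbered 5' to 3' in each gene) in each list (columns), with colour for the rank on a log scale and a dash where there was none. The eighth sgg start stands out with ranks of 63 to 179, and 10 clusters, those of Axn and pan among them, have no summit in any list.

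The scaffold genes of the destruction complex, Axn (FBgn0026597, chr3R:30022842-30035311, plus strand, 12.5 kb) and Apc (FBgn0015589, chr3R:28832301-28844748, minus strand, 12.4 kb), encode Axin and a homologue of the adenomatous polyposis coli protein. Each had 1 IDR summit, and both lay outside the gene, inside a neighbour and near that neighbour's start. The Axn summit was 731 bp upstream of Axn and 110 bp from the start of Mgat2, at IDR rank 2360 and at ranks 2419 and 758 in replicates 1 and 2. It was the only one of the 29 with no region in a replicate, being missing from replicate 3. The Apc summit was 505 bp beyond the 3' end of Apc and 228 bp from the start of WASp, at IDR rank 1923 and at replicate ranks 1892, 2036 and 3513. These 2 regions belong to the pathway genes by the 2-kb rule alone. No list had a summit within 500 bp of either Axn start cluster, and the best ranks within 500 bp of the first Apc start cluster were 6326 in the pooled list and 5642, 4480 and 7837 in replicates 1 to 3, at summits that differ between lists.

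The effector gene arm (FBgn0000117, chrX:1891401-1900646, minus strand, 9.25 kb) encodes Armadillo, the fly beta-catenin. It had 0 IDR summits. The pooled list had 2 weak summits there, at ranks 10108 and 10435, 34 and 4 bp from its start clusters 2 and 3. There were 7 summits in replicate 1, 4 in replicate 2 and 0 in replicate 3. The best ranks were 4546 in replicate 1, at an intronic site 1971 bp from a start, and 7023 in replicate 2. The X chromosome as a whole held 5391, 5395 and 2960 regions in replicates 1 to 3 and 4497 in the pooled list, fewest in replicate 3, where arm had 0. Its part in the counts at arm was not tested.

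The gene pan (FBgn0085432, chr4:69326-114270, plus strand, 44.9 kb) encodes Pangolin, the DNA-binding TCF of the pathway. It had 0 summits in every list, at all 4 of its start clusters and across its 44.9 kb. Chromosome 4 as a whole held 2 of the 30000 pooled regions and 47, 3 and 8 of those in replicates 1 to 3. The lack of summits at pan therefore cannot be told apart from their scarcity on chromosome 4.

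The feedback gene nkd (FBgn0002945, chr3L:19003741-19045449, minus strand, 41.7 kb) encodes Naked cuticle, an antagonist whose own transcription Wingless induces. Its 5 IDR summits ran from 1136 bp upstream of its only start cluster to 12137 bp downstream. Region 3 at chr3L:19042677, 2772 bp downstream in a 33.2-kb intron, was the strongest, with a score of 715, IDR rank 421 and ranks 355, 400 and 582 in replicates 1 to 3. Region 4 lay 816 bp further along, with IDR rank 1313 and replicate ranks 1243, 1998 and 1507. These 2 intronic regions were among the 1998 strongest of every replicate. Region 2, 122 bp upstream of the start, was weaker, with IDR rank 3243 and replicate ranks 4864, 4627 and 2543. Region 1, 1136 bp upstream, had IDR rank 2889 and replicate ranks 2810, 9750 and 4835. Region 5, 588 bp from the start of lncRNA:CR45940 within the intron, had IDR rank 3248 and replicate ranks 3165, 4308 and 3447. At nkd the start thus had a region, but the intron held the stronger ones.

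**Figure D3:**
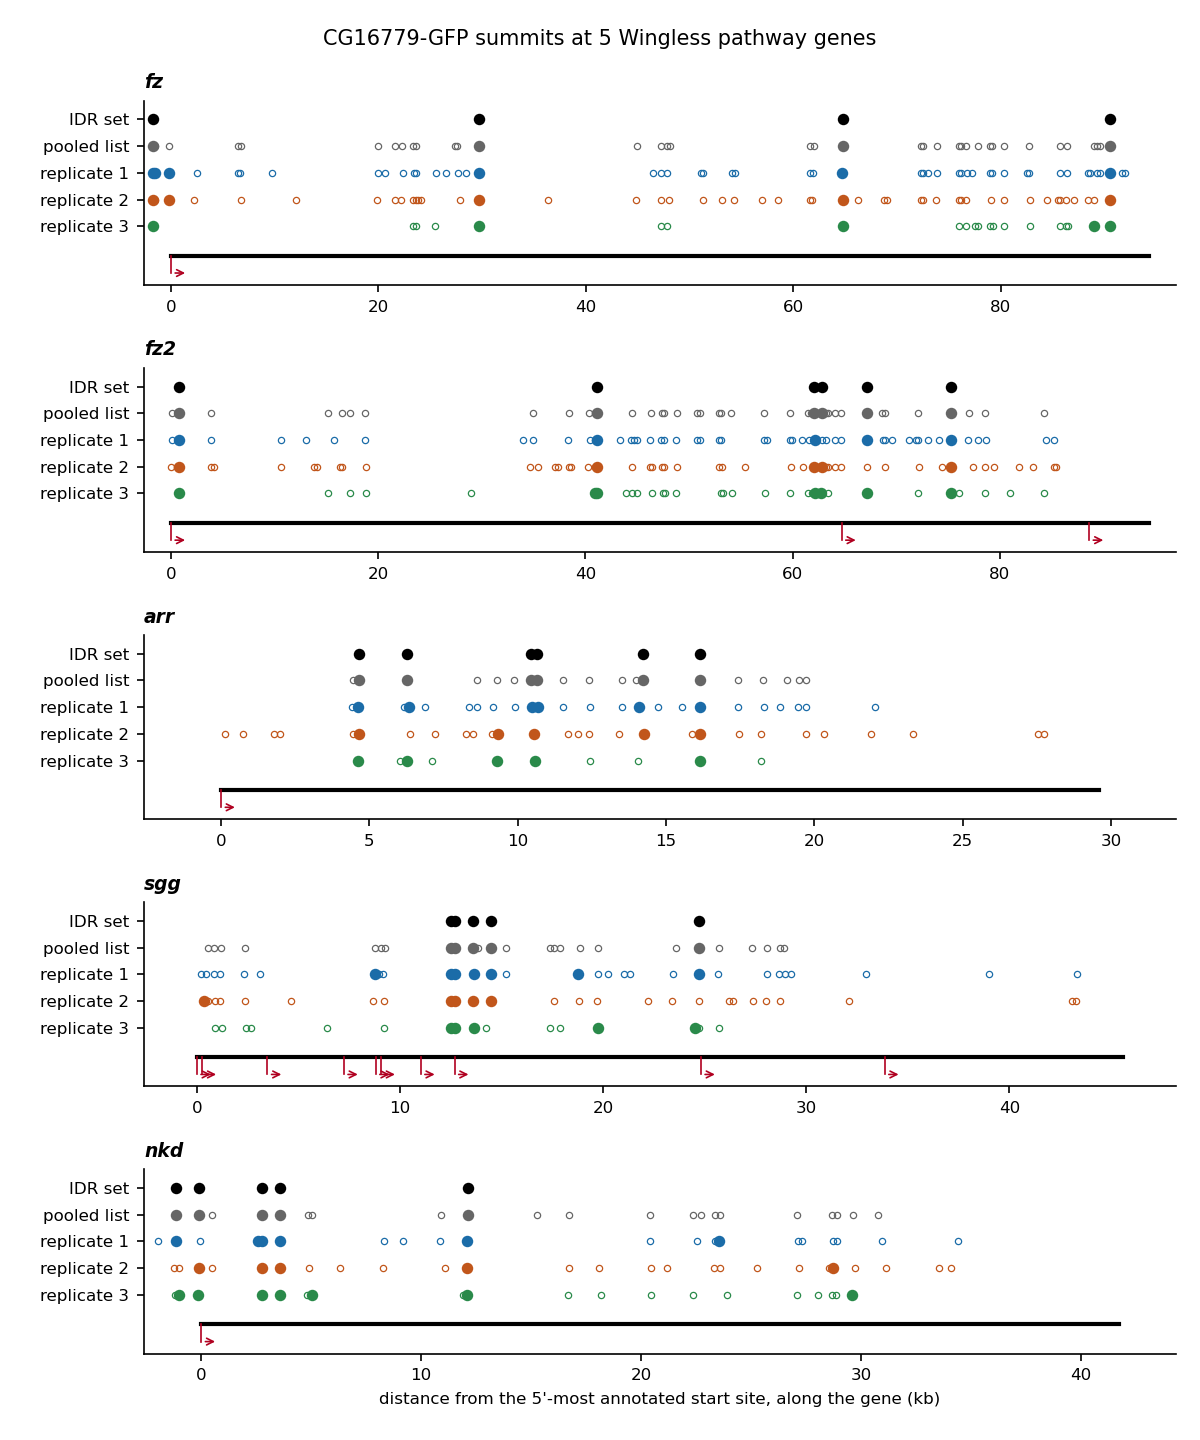
Summits at fz, fz2, arr, sgg and nkd in each list (rows of dots), against the distance from the 5'-most annotated start along the gene (horizontal axis, kb), with the gene as a bar and start clusters as arrows. Filled dots are IDR regions and the 4805 strongest of each list, open dots are weaker regions. The IDR summits of arr fall within its intron, those of sgg gather near the eighth start, and those of fz are 25.8 to 35.0 kb apart.

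Over all 8 genes, 23 of the 29 IDR summits (79.3%) lay in introns of the pathway gene, 4 upstream, 1 downstream and 1 in a 5' untranslated region. Within 500 bp of a start of the gene itself there were 4 summits, 3 at sgg and 1 at nkd. Thus 2 of the 10 genes had an IDR summit at a start, against 13.0% of all protein-coding genes. Counting the start of any gene, 7 of the 29 (24.1%) were within 500 bp, against 42.6% of all IDR summits. Besides the 4 summits at a start of the gene itself, 7 lay over 500 bp and up to 2 kb from such a start. A further 18 lay farther, 11 of them over 10 kb away. These distances are to the gene's own starts, and the Axn, Apc and arr region 2 summits lay within 500 bp of another gene's start. Long introns offer more distal than start-proximal sequence, and the difference between 24.1% and 42.6% was not tested. The shares of all IDR summits in introns, or over 2 kb or 10 kb from a start, were not counted.

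The ranks were ordinary for the IDR set as a whole, with a median of 2176 for the 29 summits and 2403 for all. There were 7 of the 29 among the best 1000, at sgg, fz, fz2 and nkd, where the base is 1000 of all 4805 IDR summits. A replicate's own region overlapped in all 3 replicates for 28 of the 29 (96.6%), against 84.8% of all IDR summits. An overlap of 1 bp is enough for this, and with a replicate summit required within 100 bp, 23 of the 29 were found in all 3. The share of all IDR summits under that stricter rule was not counted. Among only the 4805 strongest regions of each replicate, 19 of 29 (65.5%) were found in all 3, against 49.6% of all IDR summits, and the other 10 in 2. The 7 among the best 1000 had ranks of 1445 or better in every replicate, whereas the replicate ranks of arr region 2 ran between 3239 and 12214. No p-value attaches to these shares, since the pathway regions share genes, introns and libraries. The IDR set was also made from these same 3 replicates, so finding its regions there again was largely built in.

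**Figure D4:**
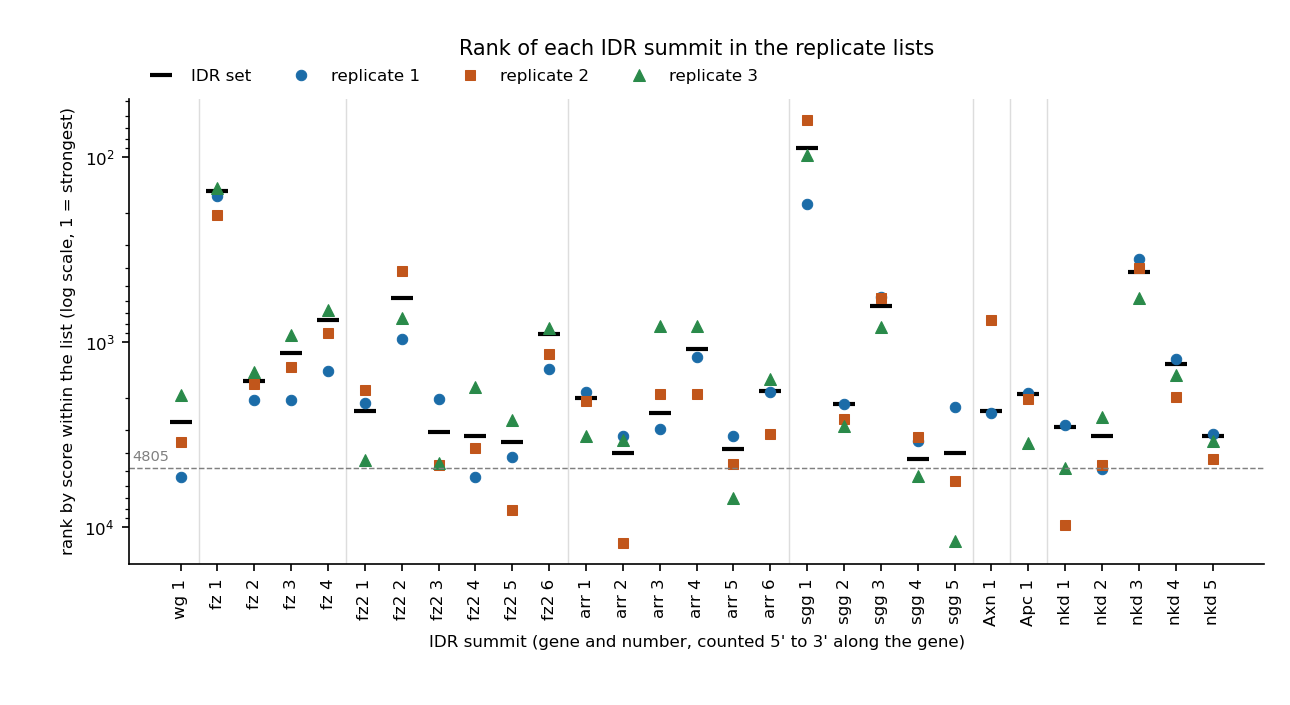
Rank by score (vertical axis, log scale, strongest at the top) of each of the 29 IDR summits (horizontal axis, numbered 5' to 3' along each gene) in the IDR set (bars) and in replicates 1 to 3 (symbols), with a dashed line at rank 4805. Region 1 of sgg and region 1 of fz lie at the top in all replicates, and Axn has no symbol for replicate 3.

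Outside the IDR set, the pooled list held 127 further summits at the pathway genes, 111 in introns, 11 within 500 bp of a start of the gene and 1 in a coding exon. The shares of all pooled summits at such places were not counted. The summits at the pathway genes numbered 190, 190 and 106 in replicates 1 to 3, so replicate 3 had fewer. In replicates 1 to 3, fz had 49, 47 and 21 summits, or 39.0 ± 15.6 (SD, n = 3), and fz2 had 51, 50 and 31, or 44.0 ± 11.3. The numbers were 24, 28 and 10 at arr, 29, 26 and 16 at sgg and 20, 25 and 19 at nkd. Replicate 3 was thus lowest at each of these 5 genes, least clearly at nkd. Among the shorter genes, Apc had 6, 8 and 5 summits, wg had 2, 1 and 4, and Axn had 2, 1 and 0. Just inside the lowest score of the IDR set (173.8) lay sgg region 4 with 189, and just outside lay a pooled intronic summit of nkd with 172, at rank 4885. Just inside the 2-kb limit lay fz region 1 at 1762 bp, and just outside lay an IDR summit of rank 1633 at 2514 bp upstream of Apc. Of the 28 start clusters, 3 had an IDR summit within 500 bp, 10 a pooled summit outside the IDR set, 5 a replicate summit alone, and 10 none in any list. A summit within 500 bp of several clusters counts for each of them, as at arm and sgg. The shares over the start clusters of all genes were not counted.

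Of 46 other genes of the pathway, 21 had an IDR summit, against 25.8% of all protein-coding genes, with 59 summits in all. Of the 46, 13 had one within 500 bp of a start, against 13.0% of all protein-coding genes. Gene length was not matched in these counts. By role, these were 1 of 6 other Wnt ligands (Wnt5), 4 of 6 genes for ligand release and spread, 3 of 6 for receptors and coreceptors, 5 of 11 for cytoplasmic components, 6 of 10 for nuclear factors and 2 of 7 targets (Dll and Myc). The highest score was at gish, a casein kinase I gene, at 1676 and IDR rank 45, above sgg region 1, with its summit 127 bp from a start and replicate ranks 61, 56 and 43. Next were Myc, a growth regulator (IDR rank 280), nej, the CBP acetyltransferase (313), wdb, a regulatory subunit of protein phosphatase 2A (423), and gro, the Groucho corepressor (506). The wdb and gro summits lay 80 and 131 bp from a start, and the Myc summit 8758 bp from a start in an intron. The nej summit lay 661 bp upstream and nearer, at 462 bp, to the start of lncRNA:CR42657. The glypican gene dlp, whose product carries Wingless across tissue, had 8 IDR summits with a best rank of 750, and the kinase gene nmo had 7 with a best rank of 862. The mts, skd and dco genes had best ranks of 1263, 1362 and 1460, and the mts summit was 11 bp from the start of a neighbouring gene. The best summits of wls and Cby, also among the 21 genes, lay 94 and 168 bp from another gene's start. Genes with no summit in the pooled list included dsh, Apc2, lgs and pygo, which encode Dishevelled, a further Apc protein and the partners that join Armadillo in the nucleus, and lgs, like pan, lies on chromosome 4.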

How the data were processed

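The data were ChIP-seq region lists for eGFP-tagged CG16779 from whole prepupae, 1 group with 3 biological replicates per the labels, with chromatin sonicated to 200 to 800 bp. The authors deposited 5 lists on dm6 (3 replicates, pooled, IDR), and those on dm3 were not used. Each region has a score deposited by the authors, whose scale differs between lists, so it served only to rank, describe and filter regions within a list. Which aligner, peak caller and IDR cutoff were used is not given in the sources used here, and read depth is unknown.

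Regions off the chromosome arms X, Y, 4, 2L, 2R, 3L and 3R were left out. Summits, printed 1-based, were placed on Ensembl release 115 genes and starts. At least 1 bp of overlap matched a replicate region to an IDR region, and of several the one with the nearest summit gave the rank. Motifs were sought as exact words in 201 bp. Python 3.11.15, numpy 2.4.6 and pandas 2.3.3 were used, and the counting was tested on simulated data. With 1 group there is no comparison of conditions and no test.

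The genes and lists were chosen with earlier results of these data known. Named are the 10 genes, genes with the start nearest to their IDR summits, and, with values, the 10 other pathway genes of highest score. Other names were chosen after their values were seen.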

Additional observations from a re-analysis of the deposited data

How the results depend on the processing

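Of 53 alternative counts over 6 results, 41 stayed within 1.5 times the reported count and 12 did not. With the 1000 strongest IDR regions alone, 4 of the 10 genes (8 reported), 7 summits at them (29), 7 of the 46 other pathway genes (21) and 1252 protein-coding genes (3608) were left. With scores above the IDR median, the summits at the genes numbered 17, those at a start 2 (4 reported) and the protein-coding genes with a summit 2332. The gene body alone gave 1678 protein-coding genes. A start window of 1000 bp, and the starts of any gene, each gave 7 summits at a start. Each of these settings takes fewer regions, less flank or more start sequence by construction.

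Each replicate was left out by taking the 4805 strongest regions of both others and keeping those that overlapped between them, 2784 without replicate 1, 2957 without replicate 2 and 3477 without replicate 3. These sets gave 6 to 7 genes with a summit, 22 to 25 summits at them, 17 other pathway genes, 3 summits at a start and 2285 to 3144 protein-coding genes. The protein-coding counts were 2312 without replicate 1, 2285 without replicate 2 and 3144 without replicate 3. The Axn summit was lost without replicate 1 or 2, and the wg summit without replicate 2 or 3. The number of summits found in all remaining replicates was 28 to 29. Here the same summits were matched to fewer replicates, so the count could only stay or rise. No paired analysis was possible because there is 1 group.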

Other observations

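The gene wg lies in a cluster of 4 Wnt genes on arm 2L, Wnt4, wg, Wnt6 and Wnt10, which spans 122 kb. The cluster held 4 IDR summits, of which the strongest was not at wg but at chr2L:7358234, between Wnt6 and Wnt10 and 5145 bp from the Wnt10 start. It had a score of 585 and IDR rank 646, and ranked 578, 1337 and 547 in replicates 1 to 3. The other 2 summits outside wg, at chr2L:7321314 and chr2L:7323169, lay downstream of wg at IDR ranks 4120 and 4012. Wnt10 and these sites were chosen after their values were seen.

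In all, 16 entries of the replicate lists at the 10 genes were among the 4805 strongest of a replicate but outside the IDR set. They were 6 in replicate 1, 5 in replicate 2 and 5 in replicate 3. A site at fz, in replicates 1 and 2, and a site at arr, in replicates 2 and 3, each gave more than 1 entry. The share of such entries over all genes was not counted. The strongest was an intronic region of nkd at chr3L:19015851, at rank 1167 in replicate 3, rank 21983 in replicate 2 and absent from replicate 1, whose pooled rank of 4885 lies just below the IDR set. An intronic region of arr, 9332 bp from its start, ranked 2772 in replicate 2 and 4647 in replicate 3 but 22861 in replicate 1.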
